A study of Mus musculus with 8 samples.

Results

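The unusually wide 5hmC regions of mouse germinal center B cells were described here. They were chosen by width: the peaks of 4 enriched libraries were merged where they touched or overlapped, and a merged region, called a union region below, was kept when it spanned at least 1500 bp on an autosome. This rule left 1642 wide regions among 341091 autosomal union regions, or 0.481%. They covered 3345 kb, which was 1.998% of all bases in union regions. Because the peak extents chose them, their widths, their peaks and their fold enrichments are given as a description with no test. A fit of KO against WT over all union regions is reported at the end, and since it reads the same peak extents its values for wide regions are a description too.

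The study profiled 5-hydroxymethylcytosine (5hmC) by hMeDIP-seq, in which genomic DNA fragments carrying 5hmC are captured with an antibody and sequenced, in germinal center B cells from C57BL/6 spleens. The genotypes were TET2 knockout (KO) and wild type (WT), with 2 enriched libraries each, numbered replicate 2 and replicate 3 in both. Per the labels no cells were treated, and the labels name neither a Cre driver nor the age of the mice. Whether the 2 libraries of each genotype came from different mice is not said, so a p-value below reflects the scatter of the libraries alone, and that scatter can be technical. The 4 input libraries had no peak lists and were not analysed here, and no expression was measured, so the cell type was not checked against transcripts.

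TET enzymes oxidise 5-methylcytosine to 5hmC, an intermediate of active DNA demethylation that can also persist as a mark of its own. TET2 is a main TET enzyme of blood cells, and its gene is recurrently mutated in blood cancers. 5hmC is known to mark gene bodies and enhancers of genes active in a cell type. Germinal center B cells divide fast, mutate their antibody genes and are selected by B cell receptor signalling and T cell help before they become memory or plasma cells.

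The sequence at a gene start inside a wide region shows how few or how many CpG sites, the usual substrate of TET enzymes, such a region can hold. Of the RefSeq start windows, each 300 bases from 250 before to 50 after a start, 49 windows of 46 genes lay wholly inside a wide region. Of these, 5 are printed here in RefSeq's GRCm38.p6 sequence, 5′ to 3′ on the gene's strand, with every CpG in capitals: that of Irf8, a transcription factor of germinal center B cells and myeloid cells, that of E2f2, a cell cycle transcription factor, that of Sema4d, a membrane semaphorin of lymphocytes, the CpG-dense window of Kmt5c, a histone methyltransferase, and that of the predicted gene Gm40369.
Irf8, chr8:120738389-120738688, plus strand: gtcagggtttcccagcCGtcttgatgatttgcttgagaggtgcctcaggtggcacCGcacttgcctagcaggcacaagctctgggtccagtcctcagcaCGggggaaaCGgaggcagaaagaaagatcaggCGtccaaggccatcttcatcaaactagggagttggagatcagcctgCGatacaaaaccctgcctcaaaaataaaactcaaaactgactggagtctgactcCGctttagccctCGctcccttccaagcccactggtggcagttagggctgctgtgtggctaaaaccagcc
E2f2, chr4:136180532-136180831, plus strand: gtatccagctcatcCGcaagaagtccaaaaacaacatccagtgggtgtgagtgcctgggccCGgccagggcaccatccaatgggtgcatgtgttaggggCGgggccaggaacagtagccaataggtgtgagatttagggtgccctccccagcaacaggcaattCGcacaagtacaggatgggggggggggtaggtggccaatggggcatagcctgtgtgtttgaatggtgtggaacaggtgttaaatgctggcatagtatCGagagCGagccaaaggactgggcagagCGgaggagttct
Sema4d, chr13:51748761-51749060, minus strand: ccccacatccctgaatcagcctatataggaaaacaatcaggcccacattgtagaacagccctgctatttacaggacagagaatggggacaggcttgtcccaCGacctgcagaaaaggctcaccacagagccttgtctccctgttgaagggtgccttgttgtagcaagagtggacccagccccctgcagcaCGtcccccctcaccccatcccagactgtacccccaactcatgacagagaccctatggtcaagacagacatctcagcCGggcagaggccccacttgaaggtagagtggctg
Kmt5c, chr7:4739877-4740176, plus strand: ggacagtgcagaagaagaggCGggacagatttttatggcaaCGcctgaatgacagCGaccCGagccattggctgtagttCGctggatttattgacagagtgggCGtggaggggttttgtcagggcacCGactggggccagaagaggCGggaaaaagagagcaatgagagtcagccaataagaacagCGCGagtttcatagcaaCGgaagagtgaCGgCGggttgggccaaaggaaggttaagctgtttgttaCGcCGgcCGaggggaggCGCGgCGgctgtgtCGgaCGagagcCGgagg
Gm40369, chr6:47653742-47654041, plus strand: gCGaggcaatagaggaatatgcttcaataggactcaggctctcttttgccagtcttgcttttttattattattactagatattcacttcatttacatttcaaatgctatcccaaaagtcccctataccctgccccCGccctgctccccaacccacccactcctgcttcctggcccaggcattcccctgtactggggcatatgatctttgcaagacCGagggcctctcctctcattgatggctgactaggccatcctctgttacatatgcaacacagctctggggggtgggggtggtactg
The windows held 8 CpGs at Irf8, 7 at E2f2, 3 at Sema4d, 22 at Kmt5c and 3 at Gm40369. The Irf8 span begins at chr8:120736358, so the printed window belongs to a RefSeq start inside the gene and not to its outermost start. For the other printed windows it was not checked whether the start is the gene's outermost one, so they need not be main promoters. Over the 49 windows the median was 6 CpGs, with an observed-over-expected CpG ratio (CpGs against the number that the C and G content would give) of 0.320, and 28.6% of the windows had a ratio of at least 0.6. Over all 31365 autosomal windows the median was 7 CpGs and the ratio 0.388, and 36.4% reached 0.6. The 646 windows inside any union region were much like those in wide regions, with a median of 6 CpGs, a ratio of 0.338 and 27.4% reaching 0.6. The wide regions at gene starts were thus not restricted to CpG-dense starts in these counts. The Gm40369 window was identical at 300 of 300 positions to those of Gm40367, Gm36327 and Gm40364, each of which lay in a wide region of its own on chromosome 6, so reads from these 4 regions may not be separable.

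The wide region over that inner Irf8 start was chr8:120738260-120740491 (2232 bp). It was covered by peaks over 2232 and 1191 bases in KO replicates 2 and 3, against 1904 and 1785 bases in WT replicates 2 and 3. That over the printed RefSeq start of E2f2, chr4:136180215-136182424 (2210 bp), was covered over 1794 and 1308 bases in the KO libraries and over 2147 and 1333 bases in the WT libraries. That over the printed RefSeq start of Sema4d, chr13:51748453-51750355 (1903 bp), was covered over 1756 and 1486 bases in the KO libraries and over 1741 and 1010 bases in the WT libraries. In these 3 regions the genotypes overlapped.

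Mature sequences of 4 microRNA genes lay wholly inside wide regions (Mir5104, Mir1190, Mir7078 and Mir7087). Mir7087 is shown because its wide region, chr9:45939245-45941703 in Sidt2, a lysosomal nucleic acid transporter gene, also held the highest score, among wide regions, of the authors' deposited table of regions higher in WT. The mature RefSeq sequences follow, with the seed (bases 2 to 8) in capitals.
mmu-miR-7087-5p: aGGCAGGUguggagcuggucu
mmu-miR-7087-3p: uGCUGGCUcucuccccugccag
The arms have different seeds. The Sidt2 region (2459 bp) was covered over 1903 and 1002 bases in KO replicates 2 and 3, against 1714 and 2375 bases in WT replicates 2 and 3, and the genotypes overlapped.

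The wide regions were the far tail of a distribution whose median was 437 bp. Their own median width was 1782 bp, and 1127 of them measured 1500 to under 2000 bp, 409 measured 2000 to under 3000 bp, 84 measured 3000 to under 5000 bp and 22 at least 5000 bp. The threshold fell in a continuous slope: 5 regions measured exactly 1500 bp and 7 were 1 bp narrower. Just inside were regions in Grb2, an adaptor of receptor signalling, in Scn8a, a sodium channel gene, and 3570 bp from Syvn1, a ubiquitin ligase gene. Just outside were regions in Traf5, a signalling adaptor of tumor necrosis factor receptors, in Arhgef3, a guanine nucleotide exchange factor gene, and in Vav1, an exchange factor downstream of antigen receptors. All 6 had peaks in all 4 libraries.

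Nearly every wide region was supported by all libraries. A peak of each of the 4 libraries lay in 1622 of the 1642 wide regions (98.8%), against 96.7% of union regions of 1000 to under 1500 bp and 60.2% of all autosomal union regions. A further 19 had peaks in 3 libraries and 1 had peaks in 2, and none rested on a single library. KO replicate 3 was the library missing in 18 of these 20, and each other library was missing in 1. The widest without a peak in KO replicate 3 lay in Arpc2, a subunit gene of the actin-nucleating Arp complex, where the peaks covered 1844 bases in KO replicate 2, against 2304 and 1129 bases in WT replicates 2 and 3. The next in width lay in Rere, Ube2h, Mgat4a and Rap1b, all without KO replicate 3. In Rap1b, a small GTPase gene, the support was thin elsewhere too, with 425 bases in KO replicate 2, against 2031 and 338 bases in WT replicates 2 and 3.

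The full width was often the sum of several libraries rather than 1 long peak. A single peak of at least 1500 bp was present in all 4 libraries in 366 wide regions, in 3 libraries in 227, in 2 in 263 and in 1 in 497, while 289 (17.6%) had none and reached their width only by merging. Such long single peaks occurred in 1009 and 436 wide regions in KO replicates 2 and 3, against 885 and 838 in WT replicates 2 and 3. At least 50% of the region was under peaks in all 4 libraries in 1369 wide regions (83.4%).

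KO replicate 3 stood apart before any comparison of genotypes. Its autosomal peaks had a median width of 348 bp, against 406 to 431 bp in the other libraries, although their number (268919) lay within the range of the 4 libraries (259588 to 288705). In KO replicates 2 and 3 the peaks covered 90.5% and 74.2% of the bases of wide regions, against 90.2% and 86.9% in WT replicates 2 and 3. KO replicate 3 broke the same regions into more pieces, with 2689 peaks in them, against 2116 in KO replicate 2 and 2229 and 2261 in WT replicates 2 and 3. The most frequent local background was recovered from the fold enrichments and the −log10 p-values. It was 11.55 and 10.87 reads in the KO libraries and 8.66 and 11.69 reads in the WT libraries. The lowest value was that of WT replicate 2. How the background was made is not stated, so these values do not rank the libraries by depth. Read totals were not given in the sources used here.

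**Figure D1:**
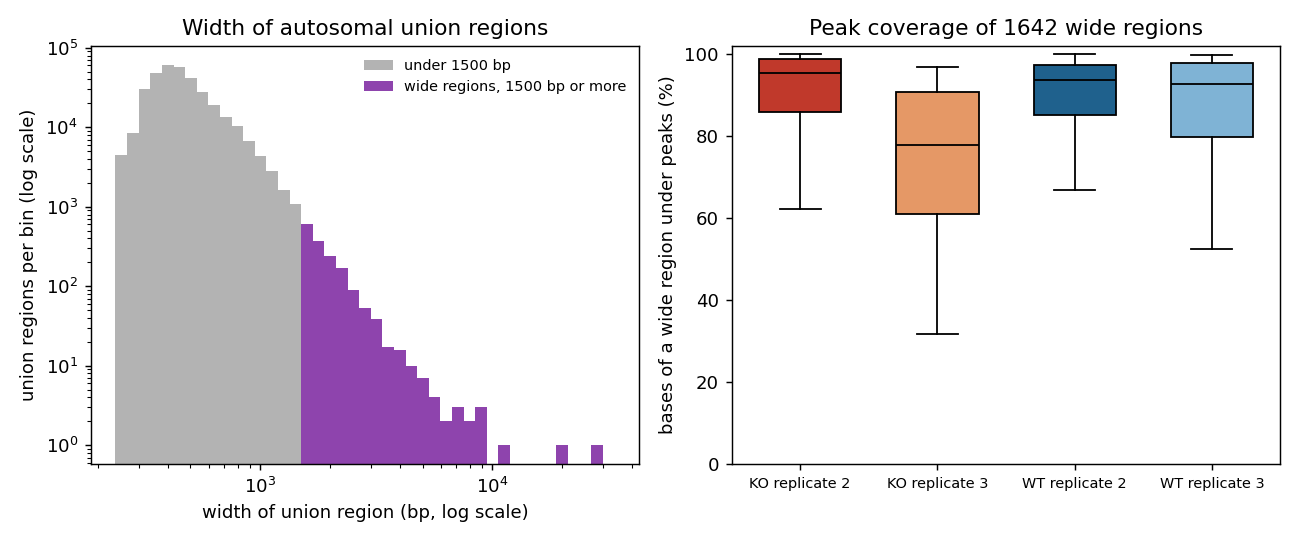
Left: number of autosomal union regions by width in bp, both axes on a log scale, with the 1642 wide regions in purple. Right: percent of each wide region's bases under peaks in each library (box, quartiles and median; whiskers, the 5th to the 95th percentile of regions); KO replicate 3 sits lowest, with a median of 77.9% against 95.5% in KO replicate 2, and the WT libraries have medians of 93.7% and 92.8%.

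The peaks in wide regions were stronger than the typical peak but not stronger than those in regions somewhat narrower. The authors' fold enrichment of the strongest peak had a median over wide regions of 7.33 and 5.81 in KO replicates 2 and 3, against 8.15 and 7.17 in WT replicates 2 and 3. Over all union regions the medians were 5.10 and 4.46 in the KO libraries and 5.59 and 4.93 in the WT libraries. Over the union regions of 1000 to under 1500 bp they were 7.57 and 5.82 in the KO libraries and 8.18 and 7.40 in the WT libraries. In each of the 4 libraries the median over wide regions lay slightly below that of the 1000 to under 1500 bp class, and both lay well above that of all union regions.

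The 10 widest regions were of different kinds. The widest, chr9:3009098-3038427 (29330 bp), and its neighbour chr9:2999918-3008918 (9001 bp) lay at the start of the assembled chromosome 9, 296803 and 326312 bp from the nearest protein-coding gene, Alkbh8. Their strongest peaks had only 1.62- and 1.48-fold enrichment in KO replicates 2 and 3, against 1.97- and 1.69-fold in WT replicates 2 and 3 in the widest region. The local background there was 28.6 to 36.2 times the most frequent one, in each library. In total 5 wide regions had a fold enrichment under 2 in all 4 libraries, and 49 (2.98%) had a local background at least 2 times the most frequent one in all 4, against 0.287% of the union regions with peaks in all 4 libraries. What part such sequence plays in their width was not tested.

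The second widest was a single peak in every library inside Ulk4, which encodes a protein of the Unc-51-like kinase family. It spanned chr9:121219853-121239709 (19857 bp), with 14.3- and 8.87-fold enrichment in KO replicates 2 and 3, against 18.0- and 16.1-fold in WT replicates 2 and 3. Peaks covered 19834 and 19775 bases in the KO libraries, and 19817 and 19831 bases in the WT libraries, so all 4 called nearly the whole width. The local background there was 1.78 and 2.22 times the most frequent one in KO replicates 2 and 3, and 1.69 and 1.45 times in WT replicates 2 and 3. The Ulk4 region held no region of either table of differences.

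In Plcg2, the phospholipase that acts directly downstream of the B cell receptor, a wide region of 9127 bp lay at chr8:117510811-117519937. It was broken up, with 4 and 7 peaks over 8151 and 5933 bases in KO replicates 2 and 3, against 2 and 5 peaks over 8872 and 8105 bases in WT replicates 2 and 3. The WT replicate 3 value lay just below that of KO replicate 2, so the genotypes overlapped. Plcg2 held 4 wide regions in all, with 15173 bp and 7 regions listed as higher in WT. A 7353 bp region that was 1 peak in each library only touched the end of Ldc1, a leucine decarboxylase gene. The other 5 lay outside protein-coding genes, among them a 10631 bp region at chr15:19708212-19718842 in the RefSeq gene Gm35969 and a 7792 bp region 3927 bp from Josd2, a deubiquitinase gene.

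Wide regions lay in genes more often than other union regions. The midpoint fell inside a protein-coding gene for 58.2% of wide regions, against 48.1% of union regions of 1000 to under 1500 bp and 39.3% of all union regions. A RefSeq start lay inside 3.11% of the wide regions, 1.36% of the 1000 to under 1500 bp class and 0.430% of all union regions. A start lay within 2 kb for 12.7%, 8.66% and 5.50% of them. A wide region has more room to hold a start, and the windows of a start are not independent of the gene spans. More than 2 kb from any RefSeq gene were 24.4% of the wide regions, 35.8% of the 1000 to under 1500 bp class and 45.8% of all union regions. Of the 1642, 975 overlapped a protein-coding gene, 160 overlapped only other RefSeq genes and 507 overlapped none. Strand and exons were not in the gene table used, so introns and exons were not told apart.

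Many wide regions lay close to each other. Another wide region lay within 10 kb for 369 of them (22.5%) and within 50 kb for 631 (38.4%). Their share of union regions ran from 0.297% on chromosome 12 to 0.693% on chromosome 17. In all 755 protein-coding genes held a wide region, in the sense that the spans overlapped by at least 1 base, or 4.95% of the 15259 with any union region: 622 held 1, 81 held 2 and 52 held 3 or more. Genes with a wide region had a median length of 65.0 kb, against 27.5 kb for genes with a union region, and longer genes hold more union regions of every width.

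The gene with the most wide regions was the predicted gene Gm7247, with 9 of its 30 union regions. Peaks covered 19243 and 16755 of their 19953 bases in KO replicates 2 and 3, against 17661 and 19560 bases in WT replicates 2 and 3, and none held a region listed as higher in WT. Rhoh, a blood-specific gene of an atypical small GTPase, came next with 8 of its 20 union regions over a span of only 36.0 kb. There the peaks covered 16071 and 13108 of 19672 bases in the KO libraries, and 18190 and 16006 bases in the WT libraries. KO replicate 2 lay just above WT replicate 3, so the genotypes overlapped, and 12 regions listed as higher in WT fell in these 8.

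**Figure D2:**
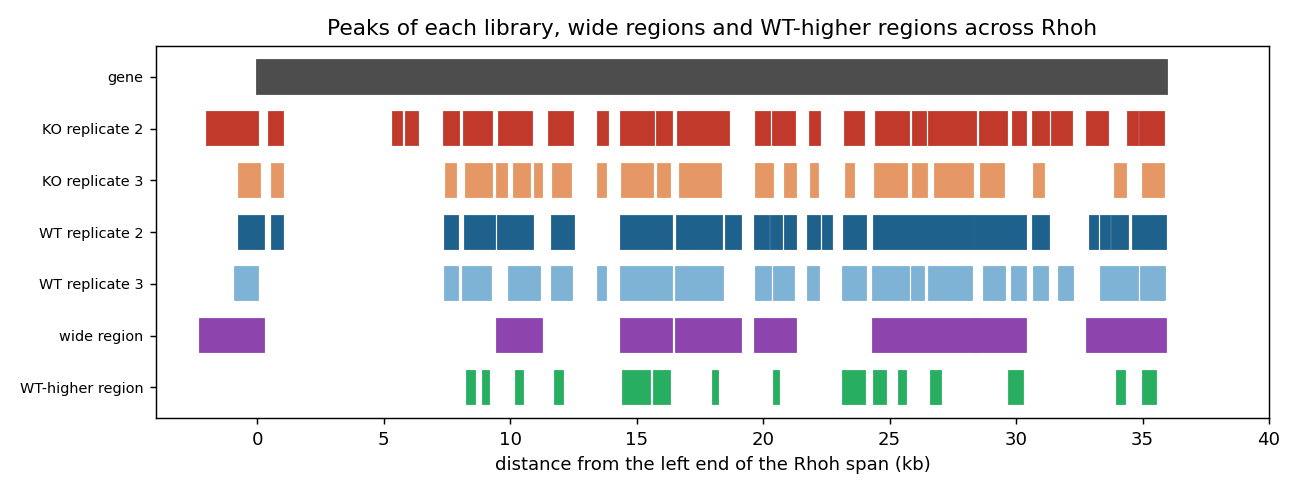
Map of Rhoh by distance in kb from the left end of its span: the gene, the peaks of each library, the 8 wide regions and the WT-higher regions of the authors' deposited table. A pair of wide regions right of the middle nearly touch and look joined at this scale, and the peaks of KO replicate 3 cover the fewest bases of the wide regions (13108).

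Several of the next genes encode transcription factors and signalling proteins of B cells. Pou2f2, the octamer-binding factor Oct-2 of B cells, held 7 wide regions, covered over 15159 and 10533 bases in KO replicates 2 and 3, against 14675 and 13661 bases in WT replicates 2 and 3. Ets1, a lymphoid transcription factor gene, also held 7, covered over 11874 and 8297 bases in the KO libraries, and 11673 and 10504 bases in the WT libraries. In both genes KO replicate 2 was the highest library and KO replicate 3 the lowest, so the spread within KO exceeded the difference between genotypes.

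Hvcn1, a voltage-gated proton channel that tunes B cell receptor signals, held 6, as did Ppp1r16b, a phosphatase regulatory subunit gene, and Chst3, a carbohydrate sulfotransferase gene. Bach2, a repressor that holds B cells back from the plasma cell fate, held 5. Its wide regions were covered over 10092 and 7257 of 12313 bases in the KO libraries, and over 11240 and 9517 bases in the WT libraries, with the genotypes overlapping. Arid1b, a chromatin remodeler subunit gene, and Fnbp1, a membrane-bending protein gene, held 5 each.

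The gene lists were chosen with earlier results of these data known, so their shares are a description and not independent evidence. Among them, the list of germinal center B cell identity had the largest share of genes with a wide region. Of 34 such genes with a union region, 21 (61.8%) held a wide region: Bach2, Pax5, Ebf1, Foxo1, Irf8, Mef2b, S1pr2, Gna13, Cxcr4, Cxcr5, Cd79a, Cd79b, Cd22, Pou2f2, Ets1, Ikzf1, Ikzf3, Fli1, Elf1, Foxp1 and Bcl11a. This compared with 4.95% of the protein-coding genes with a union region. The listed genes had a median length of 33.0 kb, against 17.5 kb over all autosomal protein-coding genes. Counted by region, 54 of their 1002 union regions were wide (5.39%), against 975 of 135176 (0.721%) over all protein-coding genes. In Ikzf3, the lymphoid factor Aiolos, 4 wide regions were covered over 9485 and 7210 bases in KO replicates 2 and 3, against 11038 and 11106 bases in WT replicates 2 and 3. There both KO libraries lay below both WT libraries without scaling. Its widest, chr11:98461671-98466676 (5006 bp), crossed the gene's end.

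Genes of B cell receptor signalling held wide regions in 13 of 27 (48.1%), which were 28 of their 909 union regions (3.08%), and they overlap in kind with the list above. They were long, with a median length of 93.2 kb, against 17.5 kb over all autosomal protein-coding genes, and the share of genes is not adjusted for length. Beside Plcg2, Grb2 held 4 wide regions, Pik3ap1, an adaptor of phosphoinositide 3-kinase, held 3, and Blnk, the linker between the receptor's kinases and Plcg2, held 2. Genes recurrently altered in lymphoma held wide regions in 11 of 29 (37.9%), with 24 of 427 union regions (5.62%), the largest share of the lists by region. They included Foxo1 and Irf8, with 4 each, and Ccnd3, the cell cycle regulator cyclin D3, with 3. Foxo1, Irf8, Mef2b and Gna13 stand on both the identity and the lymphoma list, so the counts of these lists are not independent. Without KO replicate 3 the counts were the same, at 21, 13 and 11 genes. Without WT replicate 2 they were 15, 10 and 8, the lowest of the 4 omissions for the identity list.

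Lists of other cell types held few wide regions, although in the plasma cell, T cell and neuronal lists the share of genes was not below the 4.95% of all genes with a union region. Plasma cell genes had 1 of 13 (Zbtb20), T cell genes 1 of 13, and neuronal genes 2 of 20. By region these were 1 of 207 (0.483%), 1 of 135 (0.741%) and, in very long genes, 2 of 3567 (0.0561%). Over all protein-coding genes the share was 0.721%. Myeloid genes had 0 of 9, erythroid and megakaryocyte genes 0 of 6, and the genes of the enzymes and readers of 5-methylcytosine and 5hmC had 0 of 17. With so few genes, a count of 0 does not set a list apart from the 4.95% of all genes. These counts describe where 5hmC peaks were wide and not expression.

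**Figure D3:**
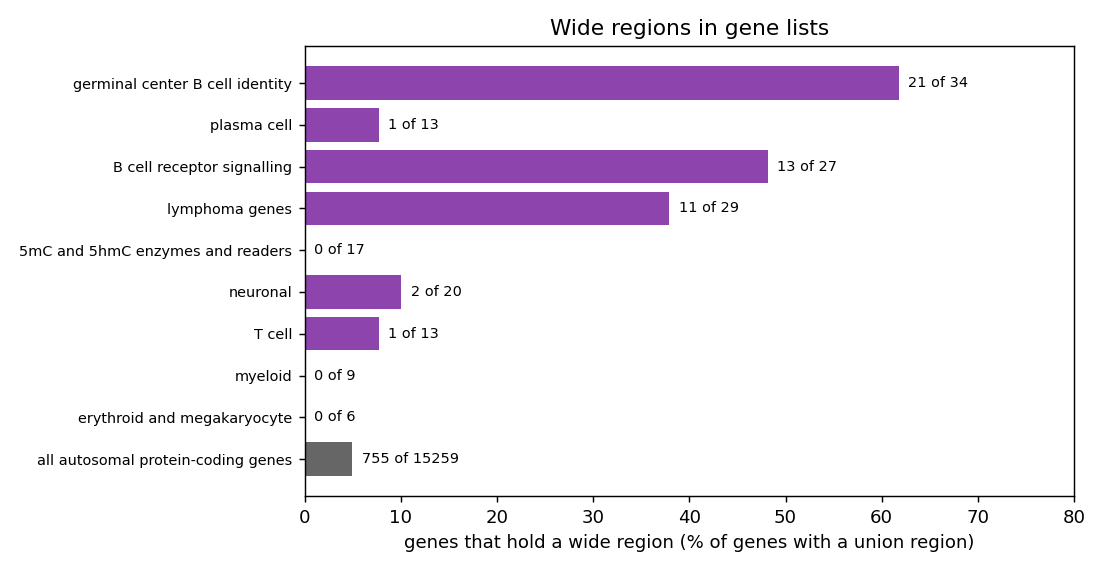
Percent of the genes with a union region that hold at least 1 wide region, for 9 gene lists and for all autosomal protein-coding genes (grey bar), with the counts beside each bar. The identity list reaches 61.8% and the B cell receptor list 48.1%, against 4.95% of all genes with a union region. The shares are not adjusted for gene length, and the genes of both lists are longer in the median than all protein-coding genes. The lists were chosen with earlier results of these data known.

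The wide regions were then set against the authors' 2 deposited tables of differential regions, one headed for KO and one for WT, read here as KO-higher and WT-higher. The tables held 41 KO-higher and 24503 WT-higher autosomal regions. Neither the libraries that entered these calls nor the scale of their score was given in the sources used here, and since both tables and the wide regions come from the same enriched libraries they are not independent.

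In the KO-higher direction 1 wide region held a listed region, where 0.00616% of all union regions did. It was chr17:57277041-57278945 (1905 bp), which ended 154 bp from Vav1. Its peaks covered 1758 and 1828 bases in KO replicates 2 and 3, against 1367 and 1195 bases in WT replicates 2 and 3, and both KO libraries lay above both WT libraries.

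In the WT-higher direction 657 of 1642 wide regions (40.01%, 95% Wilson interval 37.7% to 42.4%) held at least 1 listed region, where 6.71% of all union regions did. The intervals cover counting error only. A single listed region lay in 465, 2 in 149, 3 in 34, 4 in 6 and 5 in 3. Because a wide region has more room, the 904 listed regions were also counted by length, which gave 2.70 per 10 kb of wide region (exact Poisson interval 2.53 to 2.88), against 1.39 per 10 kb of all union regions. The listed regions took 11.1% of the bases of wide regions, so most of a wide region was not listed.

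The share was higher in each wider class under 5000 bp, and the density differed less between the classes. A WT-higher region lay in 12.2% of union regions of 500 to under 750 bp, 26.1% of those of 1000 to under 1500 bp, 37.2% of those of 1500 to under 2000 bp, 44.7% of those of 2000 to under 3000 bp, 52.4% of those of 3000 to under 5000 bp and 11 of the 22 of at least 5000 bp. The density over the same classes under 5000 bp was 2.08, 2.39, 2.70, 2.84 and 2.96 per 10 kb. In the 22 regions of at least 5000 bp it was 1.63 per 10 kb, with an interval of 1.10 to 2.33 that lay below the density of the 1500 to under 2000 bp class (2.47 to 2.94). The 11 of these 22 without a WT-higher region included the chromosome 9 pair and the Ulk4 region.

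**Figure D4:**
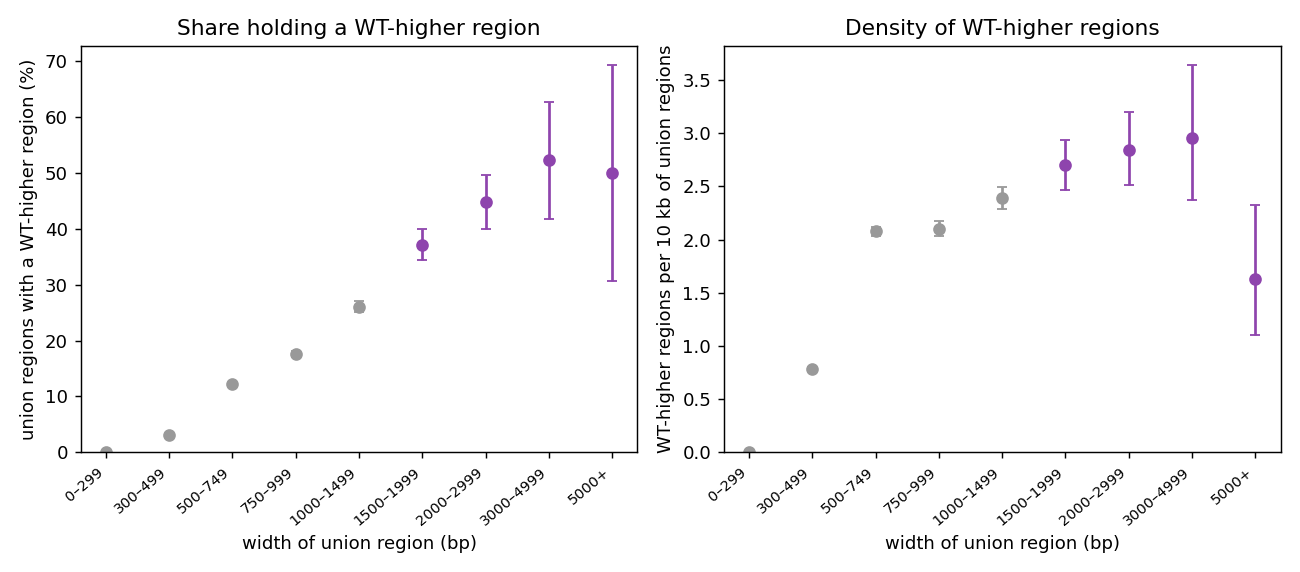
Left: percent of autosomal union regions that hold a WT-higher region of the authors' deposited table, by width class in bp (error bars, 95% Wilson intervals). Right: WT-higher regions per 10 kb of union region in the same classes (error bars, exact Poisson intervals); purple classes are the wide regions, and the density falls to 1.63 in the widest class.

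Wide regions had stronger peaks than all union regions, so regions with peaks in all 4 libraries were also compared at like fold enrichment, averaged over the strongest peak of each library. Below 5-fold, 40.6% of wide regions held a WT-higher region, against 27.98% of regions of 1000 to under 1500 bp and 6.84% of those of 500 to under 1000 bp. At 10-fold or more the 3 shares were 34.2%, 33.2% and 29.6%. By length, wide regions held 2.60 WT-higher regions per 10 kb below 5-fold, 3.04 at 5- to 7.5-fold, 2.83 at 7.5- to 10-fold and 2.12 at 10-fold or more. The 1000 to under 1500 bp class held 2.60, 1.90, 2.04 and 2.99 in the same strength classes, so wide regions were denser in the middle pair, alike below 5-fold and sparser at 10-fold or more. The 500 to under 1000 bp class held 1.07, 1.46, 2.73 and 4.22. At 10-fold or more this narrowest class was thus the densest of the 3, and the wide regions were the sparsest. The Wilson intervals of the wide and the narrower regions did not overlap below 5-fold, and those of the wide and the 1000 to under 1500 bp regions overlapped at 10-fold or more.

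**Figure D5:**
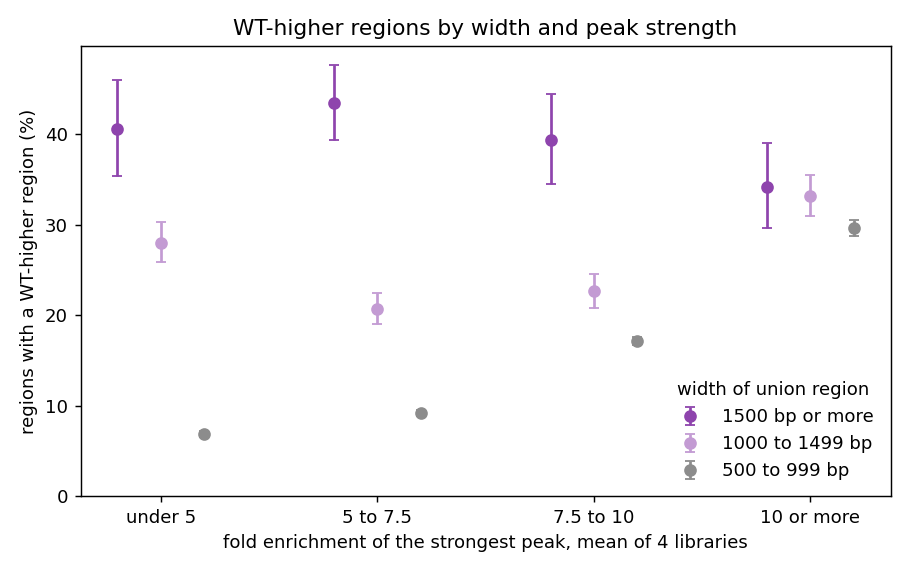
Percent of union regions with peaks in all 4 libraries that hold a WT-higher region, by fold enrichment of the strongest peak (mean of 4 libraries) and by width (error bars, 95% Wilson intervals). The wide regions lie at 34.2% to 43.5% in every strength class, while the 500 to under 1000 bp regions climb to 29.6%.

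Most bases of the 904 WT-higher regions in wide regions were still under peaks in KO: 89.9% and 70.8% in KO replicates 2 and 3, against 98.2% and 95.5% in WT replicates 2 and 3. Bases listed as higher in WT and outside peaks were thus few in KO replicate 2 and more frequent in KO replicate 3, the library with the narrow peaks.

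The wide regions with the most WT-higher regions, 5 each, lay in Bach2 (chr4:32240427-32243935), in Slc44a5, a choline transporter-like gene, and in Dnah12, an axonemal dynein gene. The Bach2 region (3509 bp) was covered over 3263 and 2192 bases in KO replicates 2 and 3, against 3347 and 2709 bases in WT replicates 2 and 3, with the genotypes overlapping. The Dnah12 region (4149 bp) was 1 peak in each library and was covered over 4136 and 4125 bases in the KO libraries, and over 4126 and 4139 bases in the WT libraries. There the peak extents did not separate the genotypes at all. Peaks covered nearly the whole region in each library, and differences in read signal inside it were not tested.

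Those with 4 WT-higher regions lay in Snx30, a sorting nexin gene, in Fnbp1, in Gm35969 and Gm39101, 3927 bp from Josd2 and 99972 bp from Atxn7l3b. In the Fnbp1 region, chr2:31134386-31137645 (3260 bp), peaks covered 2392 and 1926 bases in the KO libraries, and 3241 and 3045 bases in the WT libraries, with no overlap of the genotypes. The 5 highest scores in wide regions belonged to Sidt2, Mtss1, Tnrc6c, a region 13543 bp from Scd1, and Rasa3, at 22.6, 15.98, 13.2, 11.2 and 10.9 in the authors' deposited table, where the median over the 904 was 4.88. In Mtss1, an actin and membrane regulator gene, peaks covered 1302 and 1169 of 1638 bases in the KO libraries, and 1638 and 1563 bases in the WT libraries. In Tnrc6c, a microRNA silencing factor gene, they covered 1338 and 699 of 1523 bases in the KO libraries, and 1412 and 1329 bases in the WT libraries. The Mtss1 region separated the genotypes, and the Tnrc6c region narrowly did not, since KO replicate 2 lay above WT replicate 3.

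Of the gene lists, WT-higher regions lay in 40 of the 54 wide regions of identity genes, 14 of the 28 of B cell receptor genes and 14 of the 24 of lymphoma genes, against 429 of the 975 wide regions in all protein-coding genes. Ets1 held 11 WT-higher regions in its wide regions, Foxo1 held 10 and Ikzf3 held 7, while Ccnd3 held 0.

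Over all wide regions together the libraries of the genotypes overlapped. Peaks covered 3027 and 2483 kb of wide regions in KO replicates 2 and 3, against 3017 and 2907 kb in WT replicates 2 and 3. The means were 2755 ± 385 kb in KO and 2962 ± 77.7 kb in WT (SD, n = 2 each). No p is read from this comparison, since 2 against 2 libraries cannot go below an exact permutation p of 0.333 and the same peak extents chose the regions. After each library was scaled to the same total of peak bases the means were 2849 ± 23.0 kb in KO and 2881 ± 298 kb in WT, a difference of -31.8 kb, which was smaller than the spread between the WT libraries.

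Region by region, limma was fitted to the log2 of the scaled covered bases plus 200 over 249179 autosomal union regions, with Benjamini-Hochberg adjustment over all of them. It called 795 (0.319%) at an adjusted p under 0.05, of which 490 were lower (0.197%) and 305 higher (0.122%) in KO. Of the wide regions 14 were called, 12 lower and 2 higher in KO, out of 1642. On simulated data this robust form of the fit made false calls and recovered few of the smaller changes. The ordinary form made no false call, and what it recovered is not reported here. The simulated noise was normal with limma's moderated variances, so it may not mirror the spread of the real regions. The 14 are not taken as established differences. The calls also ended under other choices: with limma's ordinary instead of its robust moderation none of the 249179 passed (4712, and 77 wide regions, had an unadjusted p under 0.05), and without KO replicate 3, without WT replicate 2 or without WT replicate 3 no wide region passed. The 14 are given for their values.

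The first of the 14 lay in Rell1, a gene of the RELT family of tumor necrosis factor receptor-like proteins. It was covered over 447 and 339 of 1524 bases in KO replicates 2 and 3, against 1336 and 1109 bases in WT replicates 2 and 3, a log2 difference of -1.19. Both KO libraries lay far below both WT libraries. In Jakmip1, a microtubule-associated protein gene, the values were 577 and 609 of 1542 bases in KO, and 1387 and 1500 bases in WT (log2 difference -0.97). A region 23514 bp from Wee1, a cell cycle kinase gene, had 1054 and 842 of 2218 bases in KO, and 2082 and 2001 bases in WT (log2 difference -0.89).

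In Nynrin the values were 644 and 305 of 1719 bases in KO, and 1231 and 1480 bases in WT (log2 difference -1.18), and this was the only one of the 12 lower in KO that held no WT-higher region of the authors' deposited table. The others among the first 10 by p that were lower in KO lay 80245 bp from Cstad and in Sdccag8, Zfp710, Plekho1 and Rassf3, with log2 differences of -0.64 to -0.86. In Tlr6, a Toll-like receptor gene, the region was wider in KO, with 1634 and 1441 of 1635 bases, against 1027 and 887 bases in WT (log2 difference 0.67). These regions were picked by the same 4 values, so their separation is no further evidence.

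Without regard to a threshold, both KO libraries lay below both WT libraries in scaled coverage in 208 wide regions (12.7%, against 9.0% of all tested regions), and above both in 107 (6.52%, against 17.6%). The peaks scaled here covered 131.1 and 106.3 Mb in KO replicates 2 and 3, against 119.7 and 133.5 Mb in WT replicates 2 and 3. A region covered to its ends in every library thus has, after scaling, KO replicate 2 below WT replicate 2 and KO replicate 3 above both WT libraries. Such a region can count in neither direction, so these shares also depend on scaling and full coverage. The median log2 difference over wide regions was 0.04, and over all tested regions 0.02. It was -0.04 in the 657 wide regions with a WT-higher region, of which 56.8% were lower in KO, and 0.06 in the 985 without, of which 28.9% were lower. Scaling sets the balance here: with it 658 wide regions were lower and 984 higher in KO, and without it 1232 were lower and 410 higher, with a median of -0.05 over wide regions and -0.05 over all tested. A difference in peak extent cannot be told apart from a difference in library depth or enrichment with these files, since the narrow peaks of KO replicate 3 move with the unscaled values.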

How the data were processed

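The tools were MACS2 2.1.0.20151222 and BWA 0.7.12-r1039, on build GRCm38.p3, per the submitters' processing notes, which list them without settings. The authors deposited 1 peak list per library, with a score, a fold enrichment over local background (a ratio) and −log10 p- and q-values per peak, and 2 tables of differential regions with a score of unstated scale. The sources used here state neither how the background was made nor whether libraries were pooled for the tables.

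The local background in reads was recovered from the fold enrichment and −log10 p, and at least 99.9973% of summit pileups came out whole within 0.001. Peaks were merged and counted with Python 3.11.15, pandas 2.3.3 and scipy 1.17.1. Covered bases per region were scaled to equal totals of peak bases, regions with a mean under 200 were left out, and log2 (value + 200) was tested with limma 3.58.1 in R 4.3.3 (trend, robust). In a check on simulated data the robust form made false calls, so its calls are given as values only. Gene spans, start windows and microRNAs came from RefSeq (GRCm38.p6), and a WT-higher region was counted where it overlapped by at least 1 base.

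Named are the widest, the most and best listed, the called, the threshold and the poorly supported wide regions, the genes with most wide regions, and up to 4 genes per list. The members and lists were chosen with earlier results of these data known. The labels do not say whether the shared replicate numbers pair the samples. The differences between replicates were nearly uncorrelated between genotypes (r = 0.035 over 249179 regions), which cannot decide it, and the main fit used no pairing. Alternatives changed the width limit, the peaks, the gene span, the score limit, the pseudocount, filter, scaling and block, and left out each library. Some genes of the lists are not reported here by name.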

Additional observations from a re-analysis of the deposited data

How the results depend on the processing

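With a limit of 1000 bp there were 9221 regions: 97.1% had peaks in all 4 libraries, 28.6% held a WT-higher region (2.48 per 10 kb) and 49.9% had their midpoint in a gene. With 2000 bp there were 515 regions, of which 46.2% held a WT-higher region and 61.9% lay in a gene. Peaks of at least 5-fold enrichment left support in all 4 libraries at 70.8%, equal numbers of peaks at 96.2%, and a minimum of 50% of the region at 83.4%. A score of at least 5 left 21.1% with a WT-higher region and 1.24 per 10 kb. Extending genes by 2 kb put 61.1% of midpoints in genes, and by 10 kb 71.3%. Leaving out each library gave 1339 to 1587 wide regions, 2.51 to 2.78 WT-higher regions per 10 kb, and 37.7% to 40.6% holding one.

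The difference in scaled coverage, KO minus WT, reversed to 92.6 kb with peaks of at least 5-fold enrichment, and ran from -192 to 181 kb over the omissions, with 16.3 kb without KO replicate 2 and 181 kb without WT replicate 2. It was -206 kb without scaling.

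The limma counts moved under every alternative tried. Over all regions, and among wide regions, the calls numbered 2638 and 49 with a pseudocount of 50, 486 and 4 with 500, 2985 and 49 with no filter, 1287 and 91 with no scaling, 86 and 29 with peaks of at least 5-fold enrichment, and 1 and 0 with equal numbers of peaks. Leaving out each library gave 0 to 423 and 0 to 6: 423 and 6 without KO replicate 2, 105 and 0 without KO replicate 3, and 0 and 0 without either WT library. With the replicate block they were 2363 and 47, but the labels do not say whether the numbers pair the samples. An alternative chosen after seeing the data, limma without robust moderation, gave 0 and 0. The cause was not tested.

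Also chosen after seeing the data, the list counts at 1000 and 2000 bp were 27 and 15 identity, 21 and 6 B cell receptor and 18 and 6 lymphoma genes, and 15 to 21, 10 to 13 and 8 to 11 when a library was left out. With 2 libraries per genotype and peak extents in place of reads, a region covered to its ends cannot show a further gain.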
